A study of Mus musculus with 6 samples.

Results

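Mfsd2a, a transporter of lysophospholipids, and 9 enzymes of phospholipid and plasmalogen synthesis were followed in the sciatic nerve of newborn mice. The 10 genes were found by symbol among the 54838 rows of a table of fragment counts, and all 10 passed the filter on low counts. Of the 10, 5 fell in the mutant nerve and 0 rose, where 10.3% of all genes tested fell and 8.55% rose. The 10 were chosen with earlier results of these data known, so the comparison is only a description. Mfsd2a fell 18.3-fold, Pcyt2 3.88-fold, Far1 2.54-fold, Lpcat1 1.64-fold and Agps 1.39-fold. The other 5 genes, Lpcat2, Lpcat3, Gnpat, Cept1 and Pemt, were not called.

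The libraries came from whole sciatic nerve at postnatal day 3, and the strain label is C57 Bl for all 6. The 3 wild-type (WT) libraries have the genotype label WT, and the 3 mutant libraries, called conditional knockout (cKO) here, have CnpCre Actl6afl/fl. In these mutants Cre recombinase, expressed from Cnp, a gene active in myelinating glia, acts on floxed alleles of Actl6a, which encodes the BAF53a subunit of chromatin remodelling complexes. Cells outside the Cre lineage keep their alleles and contribute RNA to the same library. Whether WT mice carried Cre or floxed alleles, and whether nerves of several animals were pooled, was not given in the sources used here. Hence p-values measure only how far these libraries spread, which may be technical.

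Phospholipids with a choline or ethanolamine head group form the bulk of cell membranes and are assembled by the Kennedy pathway, in which the head group is phosphorylated, activated with cytidine triphosphate and joined to diacylglycerol. Plasmalogens are phospholipids with a vinyl ether bond, begun in peroxisomes and completed in the endoplasmic reticulum, and they are abundant in myelin. Acyl chains are then exchanged by lysophospholipid acyltransferases, and Mfsd2a imports lysophosphatidylcholine that carries long polyunsaturated chains, a role best known from the endothelium of the blood-brain barrier.

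Total counts ran from 31404107 to 36760296 per library. Levels below are CPM, counts scaled to a common total with TMM, a correction for library composition. Differences are log2 fold changes of cKO against WT from edgeR's quasi-likelihood test, with p-values adjusted (Benjamini-Hochberg) over 18775 genes, and a gene was called at an adjusted p below 0.05. Actl6a itself read 48.6, 53.3 and 46.2 CPM in the WT libraries and 42.4, 47.6 and 41.5 CPM in cKO nerves, values that overlap (log2 fold change -0.17, edgeR adjusted p = 0.243). Counts cover all exons, and the labels do not name the floxed ones. Its difference was called when cKO replicate 2 was left out (-0.24, edgeR adjusted p = 0.0487). Among 10 Schwann cell markers 7 fell and 1 rose, and no marker was at 0 in any library. Their summed level was 23440 to 26990 CPM in the WT libraries and 3071 to 5259 CPM in cKO. Cnp was among those that fell, by 5.28-fold. Cre is expressed from Cnp in these mutants, and the part of that allele in the fall of Cnp was not tested. In these whole-nerve samples, fewer cells of a type and less RNA per cell cannot be told apart. The library cKO replicate 2 stood apart: 12 skeletal muscle markers summed to 71650 CPM in it, against 3879 to 5607 CPM in the other 5. The 7 erythroid markers summed to 21870, 8779 and 6745 CPM in cKO replicates 1, 2 and 3, against 2725 to 3940 CPM in WT. Their part in the results was not tested.

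Against a background of 10.3% of all tested genes called lower and 8.55% called higher (18.8% in all), the 10 genes gave 5 and 0. In the 5 that fell the groups did not overlap, as in 21.7% of all genes (cKO lower). The median log2 fold change was -0.45 over the 10 genes and 0.04 over all genes tested. At an unadjusted p below 0.05 the count of higher genes was also 0, and DESeq2 gave 5 lower and 0 higher, with 12.5% of all genes called lower. Without cKO replicate 2 there were 6 lower and 0 higher, the sixth being Gnpat, at 17.6% of all genes called lower and 35.4% in either direction. All 5 genes called with every library were also called in that fit.

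**Figure D1:**
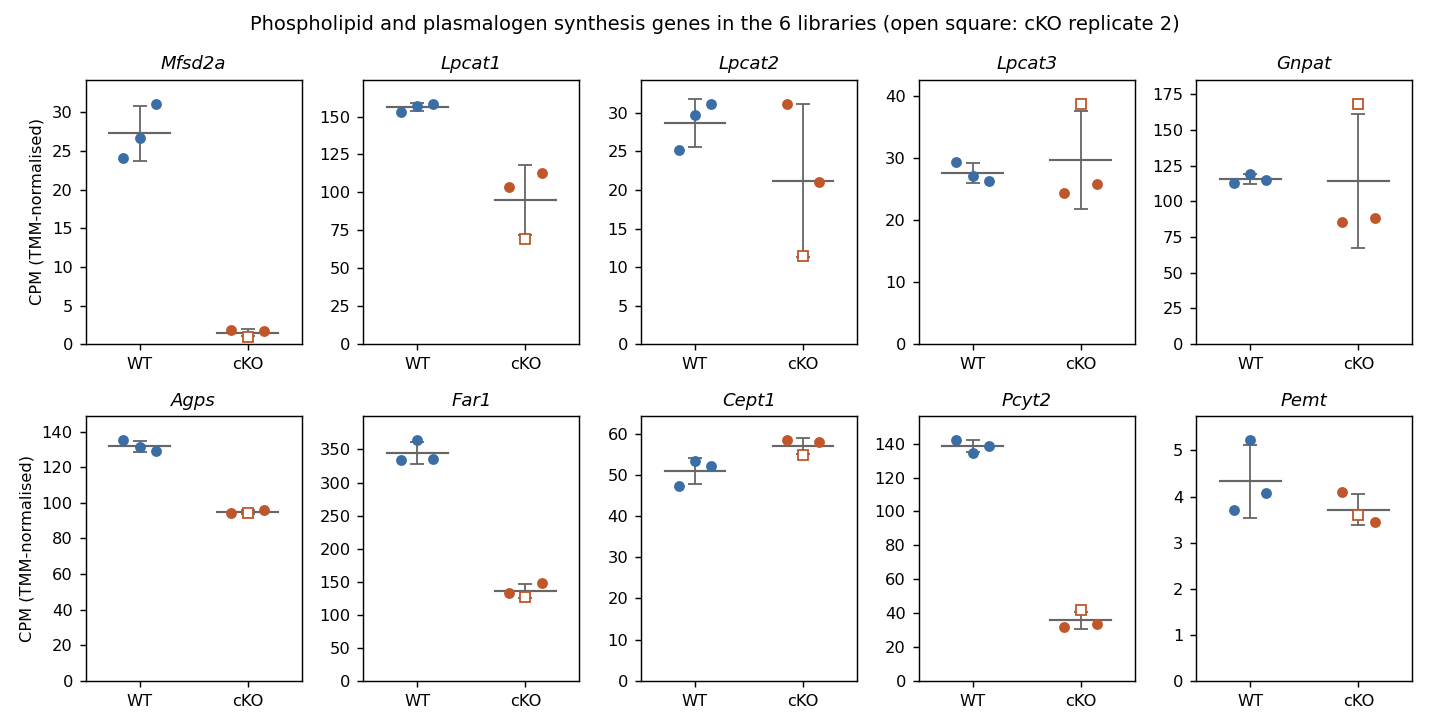
CPM (TMM-normalised, linear axes from 0) of the 10 genes in the 3 WT and 3 cKO libraries; each point is a library, horizontal lines are means, vertical bars are SD (n = 3), and the open square is cKO replicate 2. Mfsd2a, Pcyt2, Far1, Lpcat1 and Agps were lower in every cKO library than in any WT library, as were 21.7% of all genes tested, and Gnpat and Lpcat3 were highest in cKO replicate 2.

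To compare genes with each other, CPM was divided by the exonic length in kilobases. On this scale the order in WT nerves was Far1 (42.8 ± 2.03 CPM per kb, SD, n = 3), Lpcat1 (33.7), Gnpat (32.2), Pcyt2 (31.9), Cept1 (16.4), Agps (14.0), Mfsd2a (12.1), Lpcat2 (8.46), Lpcat3 (8.44) and Pemt (2.06 ± 0.375). Neighbours in this order whose libraries overlapped were Lpcat1 and Gnpat, Gnpat and Pcyt2, Agps and Mfsd2a, and Lpcat2 and Lpcat3. In cKO nerves the order of levels began with Gnpat (31.8 ± 13.1 CPM per kb, SD, n = 3) and Lpcat1 (20.6), whose ranges overlapped. Cept1 followed at 18.3 and Far1 at 16.9 ± 1.36 CPM per kb, Pcyt2 was at 8.21 ± 1.19, and Mfsd2a was last at 0.658 ± 0.211, below Pemt at 1.77 ± 0.162 (SD, n = 3 each). Libraries also overlapped between Lpcat1 and Cept1, Cept1 and Far1, Agps and Lpcat3, Lpcat3 and Pcyt2, and Pcyt2 and Lpcat2 there, so the order of these neighbours was not resolved.

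Mfsd2a (ENSMUSG00000028655, GRCm38 chromosome 4, 122946850 to 122961188, minus strand) had the largest change of the 10. Its libraries read 24.0, 26.7 and 31.1 CPM in the WT libraries and 1.79, 0.933 and 1.71 CPM in cKO, from 799, 925 and 1137 counts against 59, 26 and 60. Every cKO library lay far below every WT library, and cKO replicate 2 was the lowest. The mean was 27.3 ± 3.58 CPM in the WT libraries and 1.48 ± 0.475 CPM in cKO (SD, n = 3 each), a log2 fold change of -4.19 (SE 0.26, 95% interval -4.80 to -3.58, edgeR adjusted p = 0.00036). In order of log2 fold change it was number 6 from the bottom of the 18775 genes, of which 0.0373% lay at -4 or lower. The call was kept in all 12 alternative fits, with log2 fold changes from -4.35 to -3.96.

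Mfsd2a is known from endothelial cells, so markers of that cell type were set beside it. Of 12 endothelial markers, 1 fell, 1 rose and 10 were not called, with a median log2 fold change of 0.09. Their summed level was 681.8 to 713.8 CPM in the WT libraries and 780.0 to 851.3 CPM in cKO nerves, and no marker was at 0 in any library. The marker that fell was Slco1a4, an organic anion transporter of brain capillaries, which read 1.05, 1.12 and 0.958 CPM in the WT libraries and 0.547, 0.467 and 0.514 CPM in cKO (log2 fold change -1.03, edgeR adjusted p = 0.0231). Tek, the angiopoietin receptor, rose (0.80). The Schwann cell markers were lower in sum in each cKO library than in any WT library. The part of either cell type in the fall of Mfsd2a was not tested.

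**Figure D2:**
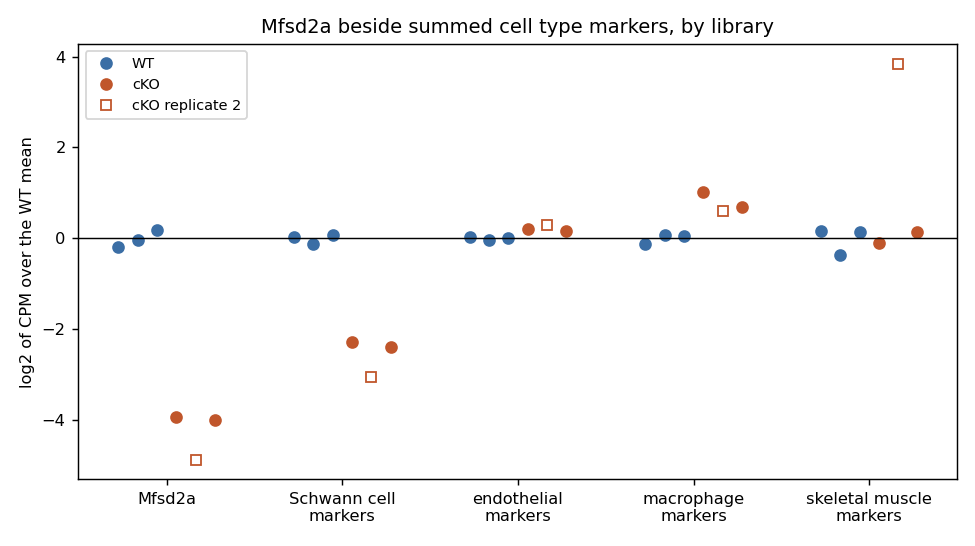
Log2 of CPM over the WT mean, for Mfsd2a and for the summed CPM of 10 Schwann cell, 12 endothelial, 10 macrophage and 12 skeletal muscle markers; each point is a library and the open square is cKO replicate 2. Mfsd2a and the Schwann cell sum were low in all 3 cKO libraries, the endothelial sum was slightly high, and the muscle sum was high in cKO replicate 2.

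Genes whose profile over the 6 libraries was most like that of Mfsd2a included Hepacam, Ndp, Ddn and Fam196b. Likeness was the root mean square difference of log2 CPM after centring each gene on its WT mean, and it was 0.135 for Hepacam, 0.32 for Ndp, 0.348 for Ddn and 0.417 for Fam196b. Pearson's r with Mfsd2a lay between 0.992 and 0.998 for these 4 genes, as a description of 6 libraries that share a split by genotype. Hepacam encodes a glial adhesion protein and Ndp the secreted ligand norrin. The libraries of Hepacam read 25.2, 22.4 and 24.5 CPM in the WT libraries and 1.49, 0.790 and 1.43 CPM in cKO. Hepacam, like Mfsd2a, was lowest in cKO replicate 2.

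RefSeq promoter windows (GRCm38.p6) were found for 9 of the 10 genes, 12 windows in all, and were read over the 250 bases before the start site. Those of Mfsd2a and Far1 are printed because these genes, the transporter and the enzyme that supplies fatty alcohol, are among those with the largest falls. Capitals mark matches, on either strand, to the letters CCAAT of the CCAAT box.
Mfsd2a, chr4:122961189-122961438, minus strand: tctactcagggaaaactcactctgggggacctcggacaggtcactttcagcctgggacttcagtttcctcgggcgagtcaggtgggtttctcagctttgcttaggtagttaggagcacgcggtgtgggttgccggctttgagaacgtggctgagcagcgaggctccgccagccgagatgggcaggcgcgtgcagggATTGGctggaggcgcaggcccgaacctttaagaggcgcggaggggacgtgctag
Far1, chr7:113513584-113513833, plus strand: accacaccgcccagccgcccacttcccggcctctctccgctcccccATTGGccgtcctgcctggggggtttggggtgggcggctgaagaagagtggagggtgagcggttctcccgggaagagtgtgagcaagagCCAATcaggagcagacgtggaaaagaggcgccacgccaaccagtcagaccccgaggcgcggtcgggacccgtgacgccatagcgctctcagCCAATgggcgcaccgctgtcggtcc
The window of Mfsd2a holds 1 match, 54 bases before the start, and overlaps an annotated exon of another gene, 4933421A08Rik. That of Far1 holds 3 matches, beginning 204, 116 and 25 bases before the start. Among the 12 windows 6 held CCAAT, against 33.8% of 32536 promoter windows of that length. The 12 are not separate promoters, since Cept1 has windows 1, 2 and 3, of which 1 and 2 overlap, and Pemt has windows 1 and 2. Bases after the start were found in 0 annotated transcripts for Cept1 windows 2 and 3 and for Pemt window 1, which held CCAAT. In the windows of Lpcat1, Lpcat3 and Cept1 (window 2), 34, 77 and 123 bases lie in annotated exons of the same gene. The letters TCACNCCAC of a sterol regulatory element were in 0 of the 12 (1.04% of all windows), GCGTGGGCG of an EGR site in 0 (0.541%), and CACGTG of an E-box in 1, that of Gnpat (6.04%). Both strands were searched, and these letters describe the windows without showing binding.

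Of the Kennedy pathway enzymes among the 10, Pcyt2 fell. Pcyt2 (ENSMUSG00000025137, chromosome 11, 120610087 to 120617936) makes CDP-ethanolamine, the rate-limiting step toward phosphatidylethanolamine. It read 141.9, 134.7 and 138.9 CPM in the WT libraries and 32.0, 41.6 and 33.4 CPM in cKO nerves. The groups were far apart, and the highest cKO value was that of replicate 2. The mean went from 138.5 ± 3.62 to 35.7 ± 5.18 CPM (SD, n = 3 each), a log2 fold change of -1.96 (SE 0.12, edgeR adjusted p = 0.000344), and all 12 alternative fits kept the call.

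Cept1 (chromosome 3, 106502260 to 106547802) carries out the last step for both choline and ethanolamine phospholipids. Its libraries read 47.4, 53.4 and 52.1 CPM in the WT libraries and 58.3, 54.7 and 58.03 CPM in cKO. Every cKO value lay above every WT value, as did those of 21.0% of all genes tested, but the log2 fold change of 0.16 (95% interval -0.03 to 0.36) was not called (edgeR adjusted p = 0.209). Exons of Dennd2d on the other strand cover 24.7% of its exonic bases, where fragments were ambiguous because strand was not used. Pemt (chromosome 11, 59970614 to 60046489), which methylates phosphatidylethanolamine to phosphatidylcholine mainly in liver, read 3.70, 5.22 and 4.08 CPM in the WT libraries and 4.10, 3.59 and 3.46 CPM in cKO. These ranges overlap (log2 fold change -0.22, 95% interval -0.66 to 0.22, edgeR adjusted p = 0.423), and the gene had 100 to 181 counts per library.

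The 3 plasmalogen enzymes among the 10 work at peroxisomes. Far1 (ENSMUSG00000030759, chromosome 7, 113513834 to 113571511) reduces fatty acyl-CoA to the fatty alcohol used for the ether bond, a step held to be rate-limiting. Its libraries read 334.5, 363.6 and 336.1 CPM in the WT libraries and 133.2, 126.7 and 148.1 CPM in cKO, so the highest cKO value was under every WT value by a wide margin. The mean fell from 344.8 ± 16.4 to 136.0 ± 10.9 CPM (SD, n = 3 each), with a log2 fold change of -1.34 (SE 0.10, edgeR adjusted p = 0.000642).

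Agps (ENSMUSG00000042410, chromosome 2, 75832177 to 75931350) exchanges the acyl chain for the fatty alcohol. It read 135.0, 131.2 and 129.0 CPM in the WT libraries and 94.3, 94.3 and 96.2 CPM in cKO, 2 narrow groups that did not overlap. The log2 fold change was -0.47 (SE 0.07, edgeR adjusted p = 0.00659), and all 12 alternative fits kept the call, with adjusted p up to 0.0451. For Far1 the call was likewise kept in all 12.

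Gnpat (chromosome 8, 124863033 to 124890057) attaches the acyl chain to dihydroxyacetone phosphate at the start of the pathway. It read 112.6, 119.2 and 115.1 CPM in the WT libraries and 85.8, 168.3 and 88.3 CPM in cKO nerves. Replicates 1 and 3 of the cKO group lay below every WT library and replicate 2, the library rich in muscle RNA, above all of them. With all libraries the log2 fold change was -0.02 (edgeR adjusted p = 0.97). Without cKO replicate 2 Gnpat fell (-0.41, edgeR adjusted p = 0.000776). The part of muscle RNA in the value of that library was not tested.

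Of the 3 lysophosphatidylcholine acyltransferases, 1 fell and 2 were not called. Lpcat1 (ENSMUSG00000021608, chromosome 13, 73467197 to 73516422), which makes dipalmitoyl phosphatidylcholine in lung surfactant, read 153.0, 156.9 and 158.4 CPM in the WT libraries and 103.7, 69.2 and 112.5 CPM in cKO. All cKO libraries were lower than all WT libraries, with replicate 2 the lowest. The mean fell from 156.1 ± 2.77 to 95.2 ± 22.9 CPM (SD, n = 3 each), with a log2 fold change of -0.71 (SE 0.18, edgeR adjusted p = 0.0337). Leaving out WT replicate 1, 2 or 3 ended the call (edgeR adjusted p = 0.107, 0.111 and 0.113) at log2 fold changes of -0.73, -0.72 and -0.71. Leaving out cKO replicate 1 also ended it (-0.78, edgeR adjusted p = 0.0553). In these fits the change was about as large as with all libraries. Leaving out cKO replicate 2 did not end the call (-0.53, edgeR adjusted p = 0.000117), nor did leaving out cKO replicate 3 (-0.85, edgeR adjusted p = 0.0413). The size of the change thus varied with the cKO library left out.

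Lpcat2 (chromosome 8, 92855339 to 92919279) acylates lyso-PAF to platelet-activating factor and is known from macrophages. It read 25.2, 29.8 and 31.1 CPM in the WT libraries and 31.2, 11.4 and 21.0 CPM in cKO, overlapping groups in which cKO replicate 2 was lowest (log2 fold change -0.44, 95% interval -1.28 to 0.41, edgeR adjusted p = 0.406). Beside it, 8 of 10 macrophage markers rose and 0 fell, and their sum was 522.0 to 596.1 CPM in the WT libraries and 857.4 to 1151 CPM in cKO. The part of macrophage RNA in the level of Lpcat2 was not tested. Lpcat3 (chromosome 6, 124663027 to 124704418), the main acyltransferase for polyunsaturated chains, read 29.4, 27.1 and 26.3 CPM in the WT libraries and 24.4, 38.7 and 25.7 CPM in cKO. The groups overlapped, and cKO replicate 2 was the highest of all 6 libraries. The log2 fold change was 0.10 with all libraries (edgeR adjusted p = 0.72). Leaving out cKO replicate 2 turned it to -0.14 (edgeR adjusted p = 0.267). Exons of Emg1 on the other strand cover 10.2% of the exonic bases of Lpcat3, and those of Gm45472 8.47% of Lpcat2.

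**Figure D3:**
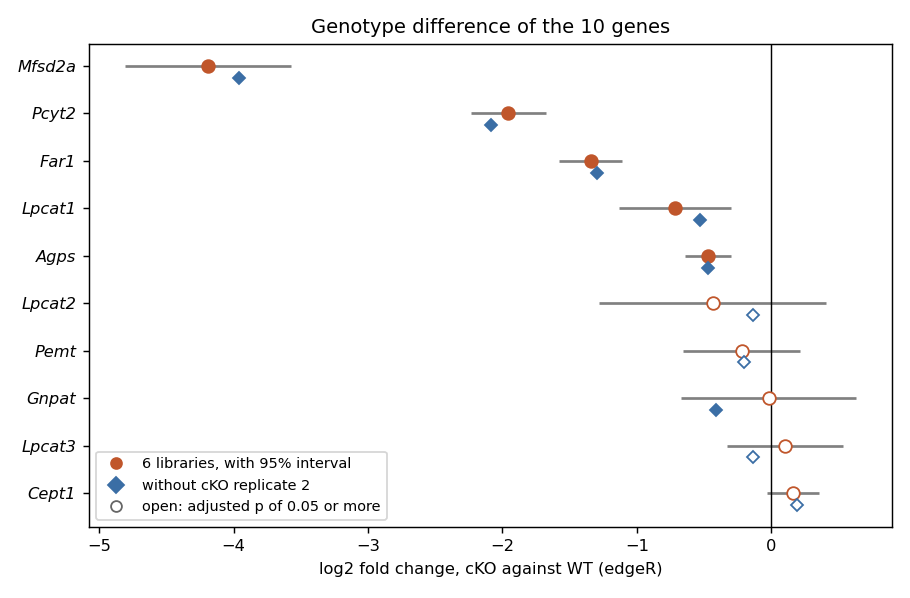
Log2 fold change of cKO against WT for the 10 genes, from all 6 libraries (circles, with 95% intervals) and without cKO replicate 2 (diamonds); filled symbols have an adjusted p below 0.05. Gnpat is open at -0.02 with all libraries and filled at -0.41 without cKO replicate 2, while Mfsd2a, Pcyt2, Far1, Lpcat1 and Agps are filled in both.

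The division of RNA within this enzyme family was described by the share of each of Lpcat1 to Lpcat4 in their summed CPM per kb. The sum was 51.5, 52.9 and 53.5 CPM per kb in WT and 41.2, 32.0 and 40.6 in cKO libraries, which did not overlap. Lpcat1 held 64.2, 64.0 and 63.9% in WT and 54.4, 46.8 and 59.9% in cKO. The mean share went from 64.0 ± 0.114% to 53.7 ± 6.58% (SD, n = 3 each), a difference of -10.35 percentage points (2-sided exact permutation test, p = 0.1, the smallest that 3 against 3 libraries allow, and 0.133 adjusted over the 4 genes). Without cKO replicate 2 the difference was -6.89 points. Lpcat3 held 15.04 to 17.45% in WT and 18.1, 37.1 and 19.4% in cKO, with the high value again in replicate 2. Lpcat4, not among the 10, held 3.69 to 3.95% in WT and 5.10 to 5.65% in cKO. These shares did not overlap, but its own level did, with means of 5.68 CPM in WT and 5.74 CPM in cKO. Its log2 fold change was 0.02 (edgeR adjusted p = 0.951). A gene at an unchanged level gains share when the sum of the 4 genes falls, as it did here.

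**Figure D4:**
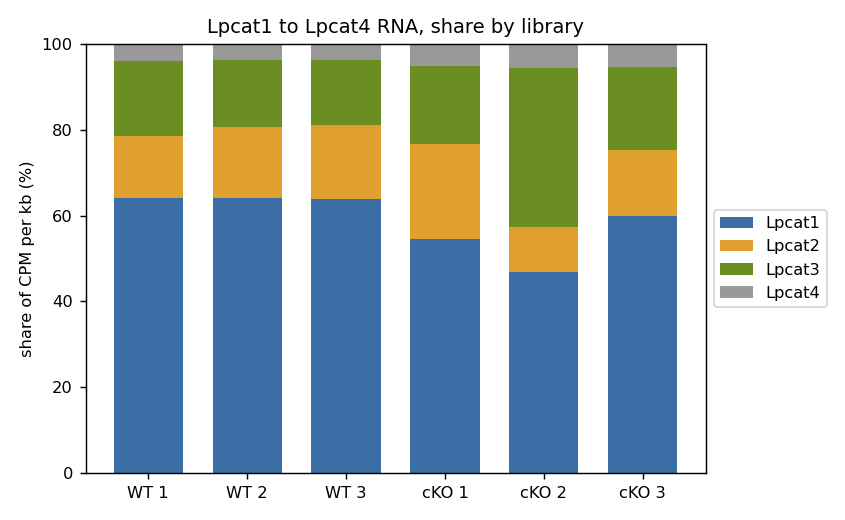
Share of Lpcat1, Lpcat2, Lpcat3 and Lpcat4 in their summed CPM per kb of exonic length (percent, stacked bars from 0 to 100) in each of the 6 libraries. Lpcat1 held about the same share in the 3 WT libraries (63.9 to 64.2%) and less in each cKO library (46.8 to 59.9%).

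The wider pathway was read from 66 other genes in 6 lists, all tested. The lists, too, were chosen with earlier results of these data known. Over all genes tested 10.3% fell and 8.55% rose, the shares to set beside the counts of each list below. Of the 66 genes 18 fell, 4 rose and 44 were not called (median log2 fold change -0.17, against 0.04 over all genes tested). Without cKO replicate 2 the counts were 31 lower and 6 higher, and all 22 earlier calls were among them. In the same fit the share of all genes called went from 18.8% to 35.4%, with 17.6% lower and 17.8% higher. Without WT replicate 1, 2 or 3 the lower calls numbered 8, 8 and 7 and the higher calls 1 each, and without cKO replicate 3 there were 11 lower and 3 higher. Over all genes the lower calls went from 1929 to 829, 822 and 790 without WT replicate 1, 2 or 3 and to 1166 without cKO replicate 3, so calls dropped in general. With each of the 6 libraries left out in turn, the calls of 8 genes were kept every time: Mboat1, Mboat7, Pcyt1b, Pisd, Pla2g4a, Ptdss1, Selenoi and Tmem189.

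Among 13 genes of the Kennedy pathway and of head group exchange, 7 fell and 0 rose, with a median of -0.45. Selenoi, which joins CDP-ethanolamine to diacylglycerol directly after the step of Pcyt2, read 141.8, 130.5 and 125.4 CPM in the WT libraries and 46.9, 54.6 and 53.9 CPM in cKO. The groups were well apart (log2 fold change -1.36, SE 0.10, edgeR adjusted p = 0.00058). Etnk1, the ethanolamine kinase, fell less (-0.45, adjusted p = 0.029). On the choline side Pcyt1b, an isoform of the choline cytidyl transferase, fell from 16.1 ± 0.634 to 5.62 ± 0.718 CPM (SD, n = 3 each, log2 fold change -1.52, edgeR adjusted p = 0.00107). The paralog Pcyt1a, at 85.0 to 89.4 CPM in the WT libraries and 75.5 to 97.4 CPM in cKO, was not called (-0.07, adjusted p = 0.706). The choline kinase gene Chka (-0.59) and the final choline phosphotransferase gene Chpt1 (-0.45) fell. Pisd, which makes phosphatidylethanolamine in mitochondria, fell (-0.84), although 20.1% of its exonic bases lie in the overlapping model Gm20671. Ptdss1, a phosphatidylserine synthase, fell as well (-0.54).

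Among 14 further genes of ether lipids and peroxisomes 3 fell and 0 rose (median -0.17). Tmem189, the desaturase that forms the vinyl ether bond of plasmalogens, read 136.9, 133.3 and 155.3 CPM in the WT libraries and 52.0, 36.5 and 44.3 CPM in cKO. All cKO libraries lay under all WT libraries (log2 fold change -1.68, edgeR adjusted p = 0.00102). The overlapping models Gm20431 and, on the other strand, Cebpb cover 21.3% and 9.56% of its exonic bases. Agmo, which cleaves alkyl ether lipids, fell (-0.96, adjusted p = 0.0372), and so did Hsd17b4 of peroxisomal beta-oxidation (-0.40). Both calls were lost whichever WT library was left out. Far2, the paralog of Far1, read 8.54, 8.73 and 8.67 CPM in the WT libraries and 7.14, 6.35 and 4.69 CPM in cKO and was not called (-0.51, adjusted p = 0.0857). The peroxisomal import receptors Pex5 (-0.002) and Pex7 (0.17) were not called either.

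Among 10 genes of acyl chain remodelling 3 fell and 2 rose. Of the acyltransferase genes, Mboat1 changed by -1.63 on the log2 scale (edgeR adjusted p = 0.000374), Mboat2 -0.88 and Mboat7, which places arachidonate on phosphatidylinositol, -0.60. The acyltransferase genes Lpcat4 and Lpgat1 (0.07, edgeR adjusted p = 0.728) were not called. The 2 genes that rose encode phospholipases, and another phospholipase gene, Pla2g6, was not called (-0.24, edgeR adjusted p = 0.342) but fell without cKO replicate 2 (-0.42, edgeR adjusted p = 0.0111). Pla2g4a, the cytosolic enzyme that releases arachidonate, read 12.7, 14.6 and 10.5 CPM in the WT libraries and 25.7, 24.6 and 23.2 CPM in cKO (0.96, edgeR adjusted p = 0.00526), with no overlap. The lysosomal enzyme gene Pla2g15 had 0.56 (adjusted p = 0.027). Macrophage markers rose with both genes, and their part in these values was not tested.

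Of 12 genes of glycerophosphate acylation and lipins, 0 fell and 2 rose (median 0.05). At an unadjusted p below 0.05 the count of lower genes was 1, Agpat2 (-0.54, edgeR adjusted p = 0.122), and DESeq2 did not call Agpat2 (adjusted p = 0.0709). The genes that rose were the phosphatidate phosphatase genes Lpin3 (1.07) and Lpin2 (0.44). Lpin2 read 31.6, 29.6 and 30.2 CPM in the WT libraries and 42.0, 41.3 and 40.4 CPM in cKO, and Lpin3 was low, at 2.28 ± 0.102 and 4.80 ± 1.38 CPM (SD, n = 3 each). Both Lpin calls were lost whichever WT library was left out. Gpat2, a mitochondrial acyltransferase, was not called (-0.57, edgeR adjusted p = 0.216). In the branch toward inositol lipids and cardiolipin, 2 of 7 fell, the CDP-diacylglycerol synthase genes Cds1 (-1.14) and Cds2 (-0.40). Both Cds calls were likewise lost whichever WT library was left out, and also without cKO replicate 3. Cdipt, the phosphatidylinositol synthase gene, and Pgs1, of the cardiolipin branch, were not called (-0.23 and -0.19, edgeR adjusted p = 0.0953 and 0.18). Of 10 genes of lysophospholipid transport and turnover 3 fell and 0 rose. These were Spns1, a lysosomal exporter of lysophospholipids (-0.52), Pnpla6, which deacylates phosphatidylcholine (-0.55), and Gdpd1, a lysophospholipase D (-0.62). The calls of Pnpla6 and Gdpd1 were lost whichever WT library was left out, and that of Spns1 without WT replicate 3. Plpp1, a lipid phosphate phosphatase, was not called (-0.45, edgeR adjusted p = 0.0942).

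**Figure D5:**
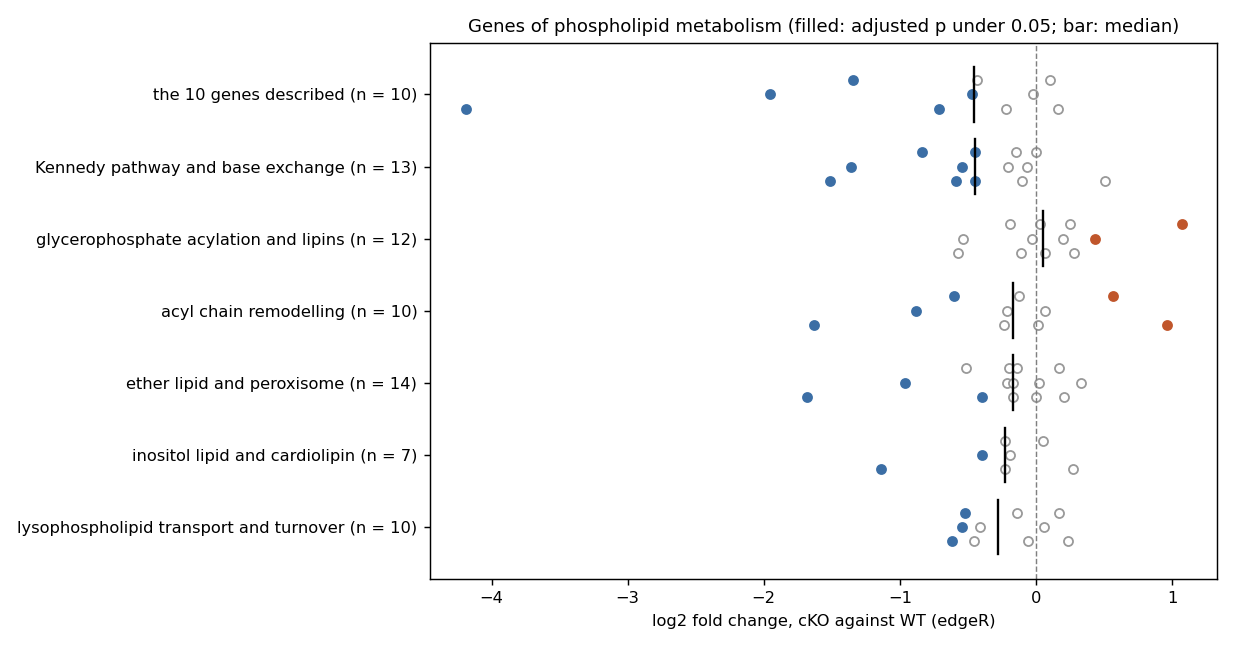
Log2 fold change of cKO against WT for the 10 genes described and for 66 other genes of phospholipid metabolism in 6 lists; each point is a gene, filled points have an adjusted p below 0.05 (blue lower, orange higher), and the black bar is the median of the list. Mfsd2a stands alone at -4.19, and the 4 genes that rose lie in the lists of acylation and lipins and of acyl chain remodelling.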

How the data were processed

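RNA of whole sciatic nerve was sequenced in 6 libraries, from about 150 ng of total RNA each, per the labels' protocols. The authors deposited raw fragment counts per gene with no normalization. Per the file headers, they were made by featureCounts 1.6.1 on exons of Ensembl GRCm38 release 95, for pairs with both mates aligned at a mapping quality of 20 or more, ignoring strand, and the exonic length of each gene stands in the same table. Subread 2.0 and DESeq2 1.3 are named in the submitters' processing notes. The aligner's settings were not given in the sources used here. Without the option for overlapping genes, a fragment on exons of more than 1 gene is not counted.

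Symbols came from GENCODE M21, which matched 54809 of 54838 rows. The 3 WT and 3 cKO libraries were grouped by title and compared with edgeR 4.0.16 in R 4.3.3: filterByExpr (minimum count 10), TMM, robust dispersions and the 2-sided quasi-likelihood F test with 4 residual degrees of freedom. The fit was also run on simulated counts in which no library stood apart as cKO replicate 2 does. That run therefore does not test calls in data with such a library. Standard errors and intervals came from the F statistic. Counts of same-group libraries spread beyond sampling error (chi-square over degrees of freedom 8.26 to 312), and each counted as 1 replicate. Alternatives were DESeq2 1.42.0, other size factors, other filters, each library left out, a replicate block and a covariate of summed skeletal muscle markers. The genes described, the lists and the tests were chosen with earlier results of these data known. Named were all 10 genes, up to 4 genes with the smallest p of each pathway list, and the 5 genes nearest in profile to Mfsd2a with log2 CPM averaging at least 1, of which 1 is not reported here. Etnk1, Chka, Chpt1, Pla2g15, Pla2g6, Lpgat1, Pcyt1a, Pex5, Pex7, Lpcat4, Slco1a4, Tek, Slc44a2, Gpam, Pex19, Agpat3, Taz and Tmem86a were chosen after their values were seen. Marker lists of erythroid, adipocyte, fibroblast and neuronal cells gave 4, 1, 2 and 2 higher and 0 lower calls. The adipocyte call was Fabp4, while the other 6 of the 7 adipocyte markers had negative log2 fold changes and were not called (median of the list -1.67). Adipoq read 8.36, 12.05 and 35.9 CPM in WT replicates 1, 2 and 3, and the part of adipocyte RNA in the results was not tested.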

Additional observations from a re-analysis of the deposited data

How the results depend on the processing

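Of the 10 genes, 4 (Mfsd2a, Pcyt2, Far1 and Agps) were called lower in all 12 alternatives and Lpcat1 in 8, so that 4 to 6 were called lower when a library was left out and 6 with the muscle covariate, with 0 higher in each alternative. Among the 66 other genes the lower calls ranged from 7 to 31 and the higher calls from 1 to 6 when a library was left out. The muscle covariate, which mainly sets cKO replicate 2 apart and so repeats its leave-out, gave 31 lower and 6 higher. Over all genes, calls ranged from 790 to 3398 lower and from 449 to 3425 higher when a library was left out. The muscle covariate gave 3348 lower and 3367 higher over all genes, against 1929 and 1605 in the main fit. The labels do not say whether replicate numbers pair the libraries. Same-numbered WT and cKO libraries deviated from their group means with correlations of -0.223, -0.231 and -0.0797. For libraries with different numbers the correlations ran from -0.118 to 0.216. With 3 libraries in each group, these values can neither show nor exclude pairing. With the replicate number as a block, 5 of the 10 genes were still called lower, and of the other 66, 12 lower and 1 higher. Over all genes that fit called 1108 lower and 744 higher, so calls dropped in general. The log2 fold change of Actl6a was -0.17 under the block and ranged from -0.24 to -0.13 when a library was left out. Gnpat ranged from -0.41 to 0.15 and Lpcat3 from -0.14 to 0.22 when a library was left out, so their signs turned, and Lpcat3 was -0.14 with the muscle covariate; the cause was not tested. The difference in the share of Lpcat1 ranged from -13.45 to -6.89 points when a library was left out and was -9.44 points with no scaling by length. Mfsd2a rested on 26 to 60 counts in cKO libraries, which limits the precision of its fold change.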

Other observations

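Leaving out cKO replicate 2 added 15 calls among the 66 other phospholipid genes to the 22 made with all libraries, while the share of all genes called went from 18.8% to 35.4%. Several of these genes had the profile of Gnpat, with cKO replicates 1 and 3 below every WT library and replicate 2 above. Pex19, a chaperone for peroxisomal membrane proteins, read 118.0, 114.1 and 116.8 CPM in the WT libraries and 84.1, 179.2 and 90.6 CPM in cKO, and without replicate 2 its log2 fold change was -0.41 (edgeR adjusted p = 0.000799). Gpam, the mitochondrial glycerol-3-phosphate acyltransferase, read 52.2, 40.8 and 42.7 CPM in the WT libraries and 29.4, 63.7 and 26.0 CPM in cKO, and had -0.71 without replicate 2 (edgeR adjusted p = 0.000441). The choline transporter-like gene Slc44a2 went from 128.4, 129.1 and 129.8 CPM in WT to 94.2, 160.8 and 95.6 CPM in cKO, and had -0.45 without replicate 2 (edgeR adjusted p = 0.000334).

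Agpat3 and Taz, an acyltransferase and the cardiolipin transacylase gene, were also highest in cKO replicate 2, at 287.2 and 62.4 CPM, but were not called without it (-0.16 and -0.12, edgeR adjusted p = 0.189 and 0.34). Tmem86a, a lysoplasmalogenase gene, was called higher without that library (0.52, edgeR adjusted p = 0.002).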
